A study of Mus musculus with 2 samples.

Results

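Abcb1b, Abcb1a, Abcb4, Abcb6, Abcb8 and Abcb10, members of the B family of ATP-binding cassette (ABC) transporters, were examined in long-read RNA sequencing of mouse adrenal gland. The genes were chosen by name, and all 6 had reads, among 15683 annotated genes with at least 1 read in either library. Together they had 84 transcript models in replicate 1 and 86 in replicate 2. The glands were taken at 36 days of age from male mice of strain B6CASTF1/J, hybrids of C57BL/6J and CAST/EiJ, with no treatment named in the labels. There was 1 group of 2 libraries and no other condition. The labels were not in accord on whether the libraries came from 1 animal or from different ones, so differences between them may be technical. With 1 library on each side, p-values weigh such differences against counting error only. The reads of the parental alleles were not told apart.

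ABC transporters use the energy of ATP to move substrates across membranes. Abcb1a and Abcb1b are the rodent counterparts of the single human gene ABCB1, which encodes P-glycoprotein, a plasma membrane pump that exports many lipophilic drugs and steroids. Abcb4 encodes a flippase that delivers phosphatidylcholine to bile. Abcb6, Abcb8 and Abcb10 encode smaller transporters that work as dimers, the last of them in the inner mitochondrial membrane, and are linked to porphyrin, iron and haem metabolism.

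The libraries held 452489 endogenous reads in replicate 1 and 463210 in replicate 2, so 1 read was worth 2.21 and 2.16 CPM, the count scaled to 1000000 endogenous reads. All 10 cortex markers and all 6 medulla markers had reads in both libraries, with summed counts of 33619 and 27082 for cortex and 5320 and 7778 for medulla. Of the marker lists counted, those of pancreas and liver differed most between the libraries. All 7 pancreas acinar markers summed to 34 reads in replicate 1 and 2905 in replicate 2, and 6 of them were at 0 in replicate 1. All 6 hepatocyte markers summed to 3 and 238 reads. The 7 fat markers summed to 3809 and 4189 reads, endothelial markers to 404 and 391, and macrophage markers to 287 and 337.

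Abcb1b was the leading member by a wide margin. Its count was 811 in replicate 1 and 820 in replicate 2, equal to 1792 and 1770 CPM, with a mean of 1781 ± 15.6 CPM (SD, n = 2). That placed it at rank 44 and rank 47 of all genes. The ratio of replicate 1 to replicate 2 was 1.01, with an exact 95% interval of 0.918 to 1.12, and its adjusted p was 0.992 in Fisher's exact test with Benjamini-Hochberg adjustment. The 5 genes nearest to it in level over the 2 libraries were Atp5a1 with 843 and 847 reads, Adh1 with 811 and 863, Aes with 768 and 771, Pebp1 with 918 and 853 and Actg1 with 801 and 714. They encode an ATP synthase subunit, an alcohol dehydrogenase, a transcriptional corepressor, a kinase inhibitor and cytoplasmic actin. In whole glands, fewer cells of a type and less RNA per cell cannot be told apart.

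The annotated Abcb1b gene spans chr5:8798147-8866315 on the plus strand of the GRCm38 (mm10) build. Its main form, Abcb1b-201, has 28 exons and 4306 bases, with the start codon in exon 2, 1276 codons and the stop codon in exon 28. Of the unannotated models, all 12 prefix models in replicate 1 and 11 of 12 in replicate 2 began 39 bases upstream of the first base of Abcb1b-201, at the start of the annotated form Abcb1b-208. A model's start is shared by its reads and is not the end of each read. The same base is the start of transcription in RefSeq, and the 250 bases before it, at chr5:8797897-8798146, are shown because this gene leads the family. Capitals mark the matches to the motifs searched.
Abcb1b promoter: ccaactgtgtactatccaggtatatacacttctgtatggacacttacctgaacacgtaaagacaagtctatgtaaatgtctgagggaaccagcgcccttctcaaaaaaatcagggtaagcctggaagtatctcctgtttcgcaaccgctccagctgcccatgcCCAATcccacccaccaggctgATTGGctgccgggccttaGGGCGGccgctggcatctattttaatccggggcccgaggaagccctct
The window held CCAAT once on the plus strand, 87 bases before the start, and once on the minus strand, 66 bases before it. It held GGGCGG, the core of a GC box, 48 bases before the start. The letters TATAAA, which mark many promoters, were not found on either strand. Nor were AAGGTCA, a half-site of steroidogenic factor 1, or TGANTCA, which AP-1 binds, or TGACG, a cAMP response half-site. No matches overlapped. Of 32851 windows of the same length, 33.85% held CCAAT, 32.7% GGGCGG, 12.4% TATAAA, 4.08% AAGGTCA, 6.75% TGANTCA and 17.8% TGACG. Windows were found for 5 of the 6 members, all but Abcb8. Those of Abcb4 and Abcb6 also held CCAAT and GGGCGG, and that of Abcb6 held TATAAA. The windows of Abcb1a and Abcb10 held none of the 6 motifs. Abcb1a's window ends at a RefSeq start that lies 92986 bases upstream of the start of the gene in the GENCODE annotation.

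Abcb1b lies between its closest relatives on chromosome 5, with Abcb1a 49572 bases on 1 side and Abcb4 27402 bases on the other, all 3 on the plus strand. Over aligned coding bases, Abcb1b-201 was 88.2% identical to Abcb1a-201, with a longest unbroken match of 338 bases, and 75.6% identical to Abcb4-201. All 3 forms have 28 exons, and 23 exons of Abcb1b-201 have the same length as in Abcb1a-201 and 21 the same as in Abcb4-201. Exon 5 is shown because some Abcb1b reads skipped it. Capitals mark bases of Abcb1a and Abcb4 that differ from Abcb1b or have no aligned partner in it.
Abcb1b exon 5, chr5:8810558-8810615: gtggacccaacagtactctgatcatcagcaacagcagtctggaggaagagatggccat
Abcb1a exon 5, chr5:8683384-8683435: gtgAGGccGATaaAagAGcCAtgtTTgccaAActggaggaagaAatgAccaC
Abcb4 exon 5, chr5:8905975-8906032: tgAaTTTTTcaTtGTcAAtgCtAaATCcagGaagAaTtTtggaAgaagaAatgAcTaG
The Abcb1b exon has 58 bases, the Abcb1a exon 52 and the Abcb4 exon 58. Aligned to Abcb1b, 15 bases of the Abcb1a exon differed, with 9 Abcb1b bases unaligned, and 22 bases of the Abcb4 exon differed, with 3 unaligned.

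Reads from this cluster were almost all Abcb1b. It took 811 of 814 cluster reads in replicate 1, 99.6%, and 820 of 824 in replicate 2, 99.5%. Abcb1a had 2 reads in each library, so Abcb1b was, in reads, 406-fold higher than Abcb1a in replicate 1 (exact 95% interval 112 to 3354) and 410-fold higher in replicate 2 (113 to 3391). One of the Abcb1a reads followed the full 28-exon form Abcb1a-201, in replicate 1. The others were an 8-exon read from exon 21 onward in replicate 1, and the annotated retained-intron form Abcb1a-202 and an unspliced read of 185 bases in the last exon in replicate 2. Abcb4 had 1 read in replicate 1 and 2 in replicate 2, and its only full-length read was in replicate 2. The remaining Abcb4 reads, 1 in each library, joined exon 27 to exon 28. All of these counts are at or under the 3 reads used as the limit of detection, which equals 6.63 CPM in replicate 1 and 6.48 CPM in replicate 2. Intervals and limits cover counting error only.

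The mitochondrial and porphyrin transporters were present at far lower levels. Abcb8, a mitochondrial transporter reported to be part of an ATP-sensitive potassium channel, was read 35 times in replicate 1 and 38 times in replicate 2, a mean of 79.7 ± 3.31 CPM. Abcb6, a porphyrin transporter, was read 10 and 16 times, a mean of 28.3 ± 8.80 CPM. Abcb10, which acts in haem synthesis in red cell precursors, was read 10 and 3 times, a mean of 14.3 ± 11.05 CPM. The libraries gave close counts for Abcb8, while replicate 2 was higher for Abcb6 and replicate 1 for Abcb10.

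The order Abcb1b, Abcb8, Abcb6, Abcb10, Abcb1a, Abcb4 was the same in CPM, without regard to length, and per kilobase of the leading annotated form. Per kilobase, the mean levels were 414 for Abcb1b, 27.1 for Abcb8, 9.55 for Abcb6, 3.32 for Abcb10, 0.874 for Abcb1a and 0.800 CPM for Abcb4. Abcb1b exceeded Abcb8 23.2-fold in replicate 1 (16.5 to 33.5) and 21.6-fold in replicate 2 (15.6 to 30.7). Abcb8 exceeded Abcb6 in both libraries, 3.50-fold (1.70 to 7.92) and 2.38-fold (1.29 to 4.56). Abcb6 and Abcb10 were level at 10 reads each in replicate 1 and were apart at 16 and 3 in replicate 2. Abcb10 and Abcb1a were not separated in replicate 2, at 3 and 2 reads, and Abcb1a and Abcb4 were separated in neither library. Abcb1b made up 93.3% of the 869 reads of the 6 genes in replicate 1 and 93.1% of the 881 in replicate 2.

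**Figure D1:**
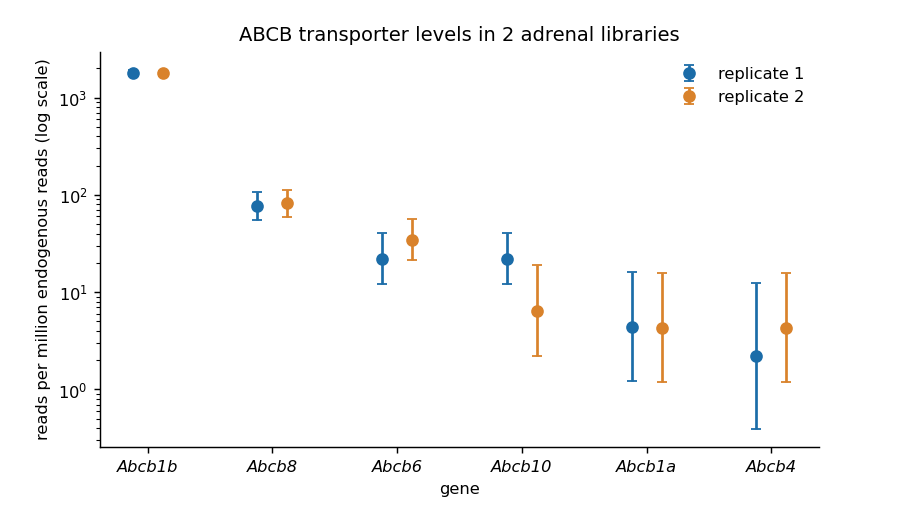
Level of each ABCB member in CPM, on a log scale, with 95% Wilson intervals of the count; replicate 1 is left of replicate 2. Abcb1b sits at 1792 and 1770 CPM, and the next gene, Abcb8, at 77.3 and 82.0 CPM.

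None of the 4 members that reached 10 reads over both libraries differed between them by an adjusted p under 0.05 and at least 2-fold in Fisher's exact test. Over all 8135 genes tested, 3.16% met that rule. No member was called under any of the 6 other settings of scaling, read class or filter. No member had an unadjusted p under 0.05 with the settings used here, against 1377 genes or 16.9% of those tested. The ratio of replicate 1 to replicate 2 was 0.943 for Abcb8 (0.578 to 1.53), 0.640 for Abcb6 (0.260 to 1.50) and 3.41 for Abcb10 (0.879 to 19.3). The last gave an unadjusted p of 0.0547 and an adjusted p of 0.309. The median log2 ratio of the 4 members was -0.033, and that of all genes tested was 0.033. The pancreas and hepatocyte markers were higher in replicate 2, and their part in these counts was not tested. This test compares the reads of these libraries, not conditions, and the intervals of Abcb6 and Abcb10 leave room for differences of more than 2-fold.

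Most Abcb1b reads held all the splice junctions of the annotated main form. Known reads, which match an annotated transcript, numbered 588 of 811 in replicate 1 (72.5%) and 596 of 820 in replicate 2 (72.7%). All but 1 of them were Abcb1b-201, and the other, in replicate 2, was the single-exon retained-intron form Abcb1b-204. The NIC class, new combinations of annotated splice sites, held 18 and 21 reads, and the NNC class, with at least 1 unannotated splice site, held 26 and 18. Reads of these 3 classes are called full-length here, although some of their models hold only part of the exons. Examples in replicate 1 are a 5-exon NIC model that ended in exon 7 and an 8-exon NNC model from exon 21 onward. The unspliced Genomic class held 17 reads in replicate 1 and 10 in replicate 2, and 15 and 7 of these lay in 1 model that ran unspliced from the gene start to 1006 bases into intron 2.

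Incomplete splice matches, which follow only part of an annotated transcript, were the second largest group. Prefix reads, which hold the 5' exons and lack the 3' ones, made up 110 of 811 Abcb1b reads in replicate 1, or 13.6% (95% Wilson interval 11.4 to 16.1), and 115 of 820 in replicate 2, or 14.02% (11.8 to 16.6). Over the reads of all annotated genes the prefix share was 0.740% and 0.729%. Among 1510 genes with at least 50 reads in each library the median share was 0 in both, 8 genes were at or above Abcb1b in each library, and 6 of these were so in both. Among 67 genes whose leading annotated form has 4000 to 5000 bases, 1 gene was at or above Abcb1b in each library. Suffix reads, most of which lack 5' exons and hold the 3' ones, numbered 51 and 59 for Abcb1b, or 6.29% and 7.20%. That share was closer to the one over all annotated genes, 5.37% and 5.65%. Over the same 1510 genes the median suffix share was 1.96% and 2.22%, and Abcb1b was above 79.8% and 81.3% of the others. Among the 67 genes with a leading form of 4000 to 5000 bases the median was 4.80% and 5.92%. Of the other members, only Abcb8 had a prefix read, 1 in replicate 1.

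**Figure D2:**
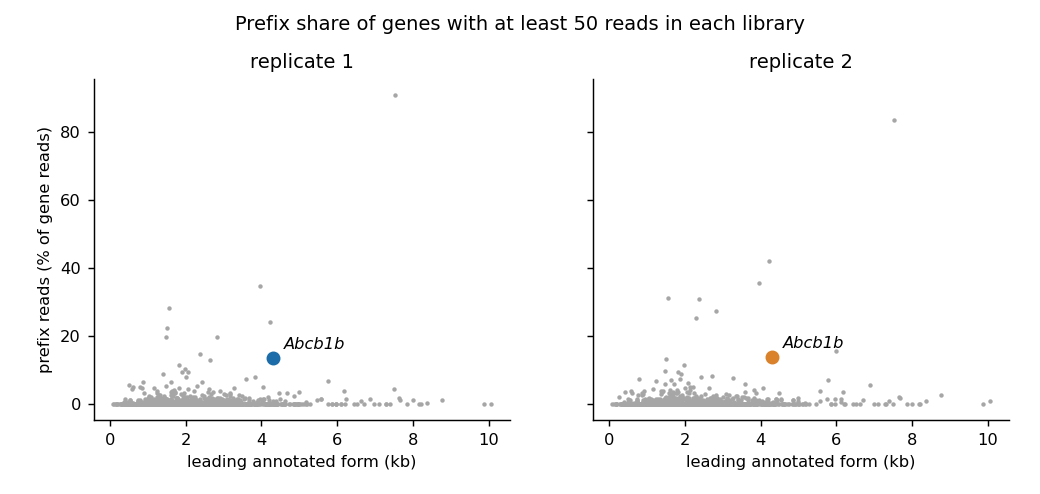
Prefix reads as a percentage of each gene's reads against the length of its leading annotated form in kilobases, in replicate 1 and replicate 2, for genes with at least 50 reads in each library. Abcb1b, the large point, lies at 13.6% and 14.02%, and the median of all genes is 0.

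The prefix reads stopped at a few places near the 5' end. Exon 2 was the last exon joined in 39 prefix reads of replicate 1 and 36 of replicate 2. Exon 4 was the last in 26 and 33, exon 5 in 8 and 14, and exon 6 in 28 and 20. These 4 exons held 91.8% of the prefix reads in replicate 1 and 89.6% in replicate 2. None stopped at exon 3 in either library, and the rest ended at exons 8 to 26, with at most 5 reads at any exon. The model that ended after exon 2 ran 1006 bases into intron 2 in both libraries, which is the end of the unspliced model described above and of no annotated Abcb1b form. The models that ended with exon 6 ran on through intron 6 to 77 bases into exon 7, which is the end of the annotated form Abcb1b-203, a candidate for nonsense-mediated decay. The model that ended with exon 4 stopped at the end of that exon in replicate 1 and 987 bases into intron 4 in replicate 2, so the splice junctions are more certain than the ends.

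**Figure D3:**
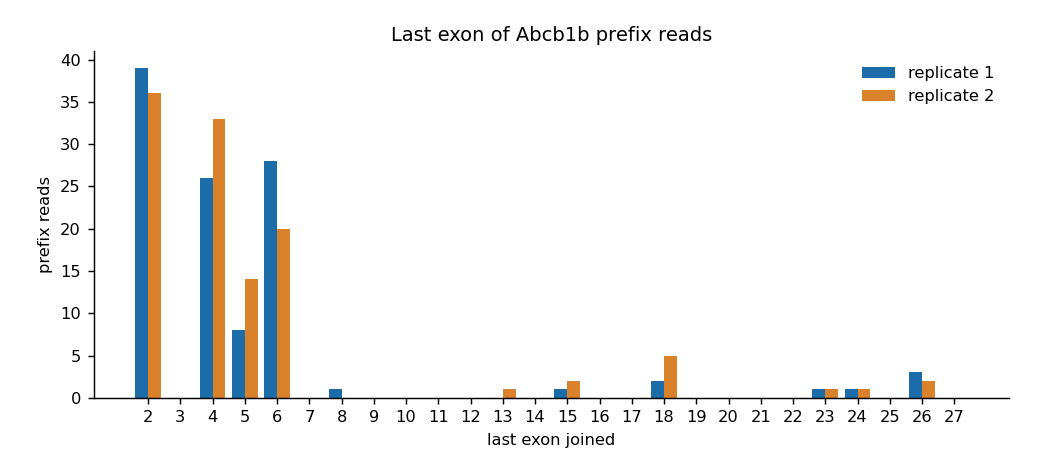
Number of Abcb1b prefix reads by the last exon they joined, with replicate 1 left of replicate 2 at each exon. Exons 2, 4, 5 and 6 hold 101 of 110 reads in replicate 1 and 103 of 115 in replicate 2, and exon 3 holds none.

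Suffix reads were spread more widely. Exon 28 was reached by 50 of the 51 in replicate 1 and 59 of the 59 in replicate 2. The first exon of those was any of 16 exons in replicate 1 and 20 in replicate 2, with at most 11 reads at 1 exon, exon 12, in replicate 1 and 9, at exon 25, in replicate 2. The remaining read, in replicate 1, ran from exon 2 to exon 5. In replicate 2, 2 suffix reads began at the gene start, kept intron 1 and ran to exon 28, and are counted at exon 2. Coverage of the splice junctions followed from these classes. The junction of exons 1 and 2 was crossed by 739 reads in replicate 1 and 747 in replicate 2. That of exons 6 and 7 was crossed by 638 and 643, the fewest, and that of exons 27 and 28 by 678 and 688.

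**Figure D4:**
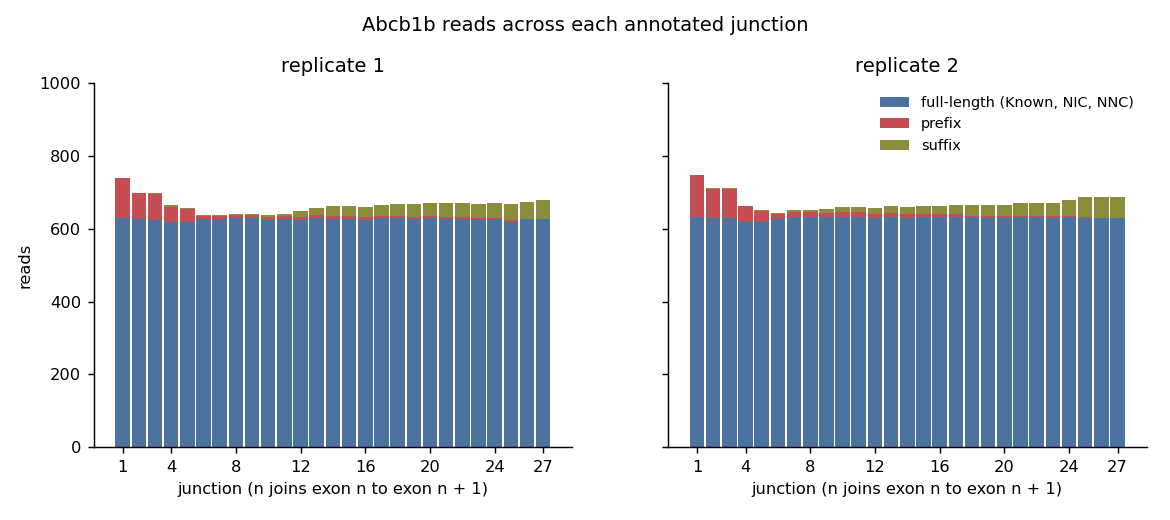
Abcb1b reads that cross each of the 27 annotated junctions of the main form, stacked by class, in replicate 1 and replicate 2. Totals are 739 and 747 at the first junction, lowest at 638 and 643 at junction 6, and 678 and 688 at the last.

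Among full-length reads, Abcb1b-201 made up 588 of 632 in replicate 1, or 93.0% (90.8 to 94.8), and 595 of 635 in replicate 2, or 93.7% (91.5 to 95.3), a mean of 93.4 ± 0.469%. The share did not pass the test between the libraries (adjusted p = 1, Fisher's exact test with Benjamini-Hochberg adjustment). The test covered 1226 genes that had more than 1 form and 50 or more such reads per library. Of these, 3 genes or 0.245% passed with a change of at least 10 percentage points, and the leading forms of all 1226 had median shares of 94.1% and 94.2%. Beside the annotated forms there were 53 unannotated full-length forms of Abcb1b, 33 in replicate 1 and 30 in replicate 2, with 44 and 39 reads in all. Of these forms 36 rested on a single read and 10 were seen in both libraries. Abcb1b-201 and Abcb1b-204 were the only forms with Known reads among 9 annotated ones.

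The most frequent unannotated form lacked exon 5 and was otherwise complete, with 27 exons, and had 5 reads in replicate 1 and 6 in replicate 2. Reads of any class were counted where the junctions around exon 5 joined splice sites of Abcb1b-201. Of these, 12 of 667 lacked exon 5 in replicate 1, or 1.80% (1.03 to 3.12). In replicate 2, 13 of 662 did, or 1.96% (1.15 to 3.33), and the mean was 1.88 ± 0.116%. Reads joined there at other sites were left out. Among these, 2 of replicate 2 joined a donor 139 bases into intron 4 to exon 6 and so lacked exon 5. The libraries did not differ by Fisher's exact test (p = 0.843, for this exon alone). Counted in the same way, each of the other 25 internal exons was absent from at most 3 reads in either library. The highest shares were 0.448% in replicate 1 and 0.473% in replicate 2, and 15 of these exons were never skipped. That count left out 1 read of replicate 1 that lacked exon 3 and joined a donor 28 bases into intron 2 to a site within exon 4. The annotation holds the junction of exon 4 with exon 6 only in Abcb1b-203 and Abcb1b-208, both labelled as nonsense-mediated decay forms, and neither was assigned any Known read. The last 20 bases of exon 4, in lower case, and the first 20 of exon 6, in capitals, are joined as follows.
Abcb1b exon 4 joined to exon 6: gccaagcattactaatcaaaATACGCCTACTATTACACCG
Exon 5 is not a multiple of 3 bases long. By the letters of the transcript, the frame without it reaches a stop codon in exon 6 after 106 codons of the 1276, 148 bases before the end of that exon and with 22 splice junctions downstream.

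**Figure D5:**
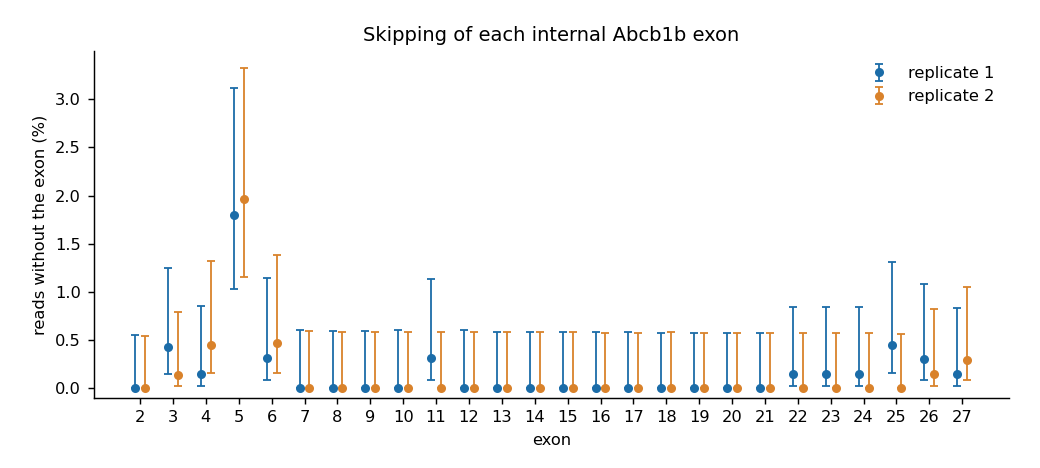
Percentage of reads that lack each internal exon of Abcb1b, among reads joined around it at splice sites of Abcb1b-201. Bars are 95% Wilson intervals, with replicate 1 left of replicate 2. Exon 5 is at 1.80% and 1.96%, and the other exons are at 0.473% or less.

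The other forms seen in both libraries were rarer. Exon 3, exon 6 and exon 26 were each left out of 1 otherwise complete read in each library, as were exons 5 and 6 together. An unannotated exon of 150 bases within intron 19, at chr5:8833435-8833584, appeared in 1 read of each library. A donor 139 bases into intron 4 was used in 2 reads of replicate 1 and 4 of replicate 2, over all classes. Smaller changes lay close to annotated splice sites. Unannotated junctions with at least 1 splice site outside Abcb1b-201 were counted, each junction of a read apart. They were crossed 31 times in replicate 1 and 27 times in replicate 2. Of these crossings, 22 and 17 were within 20 bases of sites of that form on both sides. Junctions that skip exons between sites of Abcb1b-201 are not among them. A donor 3 bases inside the exon was used at 4 exons, in 9 reads of replicate 1 and 3 of replicate 2, and a donor 4 bases into the intron at 4 exons, in 2 and 5 reads. For exon 25 the inner donor had 5 reads in replicate 1 and 0 in replicate 2, for exon 16 it had 2 and 1, for exon 12 it had 1 and 2, and for exon 23 it had 1 and 0. The last 15 bases of these exons are shown, with the 3 bases that the inner donor leaves out in capitals.
Exon 12, chr5:8824584-8824598: cccctggagggcGTG
Exon 16, chr5:8827485-8827499: atgaaagaggctGTG
Exon 23, chr5:8849638-8849652: tgaaaatgttatGTT
Exon 25, chr5:8853612-8853626: atggctggatcaGTG
In each of the 4 exons the 3 bases begin with GT, the letters with which introns usually begin. These 4 were also the only ones of 27 exons with a donor whose last 3 bases begin so.

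The remaining members also followed their annotated main forms. Abcb8-201, with 16 exons, took 24 of 29 full-length reads in replicate 1, or 82.8% (65.5 to 92.4), and 27 of 33 in replicate 2, or 81.8% (65.6 to 91.4). Abcb8-202 and Abcb8-203 had 1 Known read each, both in replicate 2, and 9 unannotated Abcb8 forms had 1 read each. A donor 52 bases inside exon 4 of Abcb8 was used in 2 reads of replicate 1 and 1 of replicate 2. Abcb6-201, with 19 exons, took 9 of 9 and 14 of 15 full-length reads, and the exception kept introns 3, 5 and 8. Abcb10-201, the only annotated Abcb10 form, took all 8 and 3. In both libraries, 1 Abcb6 read began at exon 3.

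Genes that overlap Abcb1b had few reads. Gm5106, an antisense gene that overlaps it, had 1 read in replicate 1 and 0 in replicate 2, and 7330423F06Rik on the same strand had 0 and 2. Unannotated antisense models there had 4 and 5 reads. Gm20388, a gene on the opposite strand that overlaps Abcb10, had 34 and 36 reads, more than Abcb10 itself with 10 and 3. Of the Abcb10 reads, 8 in replicate 1 and 3 in replicate 2 followed all 13 exons of Abcb10-201. In replicate 1, 1 more followed exons 2 to 13. It is not stated whether counting used the strand, so other reads of this pair may not have been told apart. The genes on either side of Abcb6 were Zfand2b, 88 bases away, with 27 and 25 reads, and the autophagy gene Atg9a, 468 bases away, with 10 and 15. Crot, a peroxisomal carnitine acyltransferase next to Abcb4, had 16 and 9 reads, and Rundc3b, next to Abcb1a, had 0 and 1. The genes beside Abcb8 were Atg9b, with 3 and 1 reads, and the acid-sensing channel Asic3, with none. Those beside Abcb10 were the nuclear pore gene Nup133, with 4 and 6 reads, and Taf5l, with 20 and 14. Gm45890, antisense to Abcb10, had 1 and 0, and the 4 other genes that overlap a member had none.

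Other genes of the ABCB family had at most 52 reads in a library. Abcb9, a lysosomal peptide transporter, had 8 and 6. Tap1 and Tap2, which carry antigen peptides into the endoplasmic reticulum, had 11 and 15 reads and 52 and 34. Abcb5 and the bile salt export pump Abcb11 had 0 reads in both, which allows up to 6.63 CPM in replicate 1 and 6.48 CPM in replicate 2. None of Abcb9, Tap1 and Tap2 was called in Fisher's exact test, and 1 of these 3, Tap2, had an unadjusted p under 0.05, beside 3.16% called and 16.9% with such a p over all genes tested. Outside the family, 27 of 40 ABC genes had reads, 14 were tested and none was called, with 3 at an unadjusted p under 0.05, beside the same shares over all genes. The 5 with the highest means were Abcf1 at 143 ± 8.44 CPM, Abcf2 at 125 ± 45.3, the peroxisomal transporter Abcd3 at 80.8 ± 4.43, Abcf3 at 55.8 ± 14.8 and the ribosome recycling factor Abce1 at 36.1 ± 5.23. Abcf and Abce proteins act on ribosomes and carry nothing across membranes.

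Among 8 listed partners of the mitochondrial members, 6 were tested and 2 were called, both higher in replicate 1, where 1.71% of all genes tested were called in that direction. Alas1, the first enzyme of haem synthesis, was read 1593 times in replicate 1 and 317 times in replicate 2, a ratio of 5.14 (4.56 to 5.82), with an adjusted p of 2.65e-207 in Fisher's exact test. Ppox, a later enzyme of that pathway, had 34 and 13, a ratio of 2.68 (1.38 to 5.53), with an adjusted p of 0.0329 in the same test. Those not called were Fech, the last enzyme, with 47 and 42 reads, the carriers Slc25a39 with 258 and 238 and Slc25a38 with 16 and 8, and the Abcb8 partner Ccdc51 with 8 and 9. Cpox, with 6 and 3 reads, and the Abcb10 partner Slc25a37, with 1 and 3, were not tested. The median log2 ratio of the 6 tested was 0.59, beside 0.033 over all genes tested. Markers of red blood cells and of cortex were also higher in replicate 1. The 5 red blood cell markers with reads summed to 2181 in replicate 1 and 1862 in replicate 2, and Slc4a1 was at 0 in both. One of the 5 was called, Alas2, the red cell counterpart of Alas1, with 26 and 6 reads, a ratio of 4.44 (1.79 to 13.2). The 10 cortex markers, summed above, had a median log2 ratio of 0.38, and 1 was called, the steroidogenic factor Nr5a1, with 274 and 129 reads. The part of these markers in the difference of Alas1 and Ppox was not tested.

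Of 11 listed regulators of Abcb1 genes, 9 had reads, 8 were tested and none was called, with 4 at an unadjusted p under 0.05, beside 3.16% and 16.9% over all genes tested. Cebpb, a stress and hormone-responsive factor, was read 925 times in replicate 1 and 565 times in replicate 2, a ratio of 1.68 (1.51 to 1.86) with an adjusted p of 1.37e-20 in Fisher's exact test, under the 2-fold limit. Ybx1, a Y-box binding protein, had 208 and 157. The xenobiotic receptors Nr1i2 and Nr1i3 had 0 reads in both libraries. The glucocorticoid receptor Nr3c1 had 0 and 7, too few to be tested. Of the others tested, Foxo1 with 10 and 13 reads and Rxra with 11 and 16 were higher in replicate 2. Foxo3, Trp53, Nfe2l2 and Hif1a were higher in replicate 1, as were Cebpb and Ybx1. The median log2 ratio of the 8 tested was 0.55, beside 0.033 over all genes tested, and that of Abcb1b was 0.018.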

How the data were processed

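Adrenal RNA was sequenced as long reads in 2 libraries of 1 group. Per the file headers and accompanying text, the authors assigned reads to transcript models of GENCODE M21 on mm10 (GRCm38) or to unannotated models, and deposited whole read counts per model with no normalization and no model at 0. The aligner is not given in the sources used here. Exon numbers, lengths and coordinates of models were used as they stand. Genes were matched by symbol. Spike-in reads, 5512 in replicate 1 and 15792 in replicate 2, were left out of totals. Gene counts summed all classes and were divided by endogenous reads. The libraries were compared by 2-sided Fisher's exact test with Benjamini-Hochberg adjustment over genes with at least 10 reads summed, and a call needed an adjusted p under 0.05 and 2-fold after adding 1 CPM. With no replicated contrast, no count model was fitted; edgeR 4.0.16 and DESeq2 1.42.0 gave alternative scalings. Shares have 95% Wilson intervals. Forms were matched by annotated ID or intron chain. The procedure was tested on simulated data. Exon sequences came from GENCODE M21 transcripts, promoters from RefSeq on GRCm38.p6. The members and gene lists were chosen with earlier results of these data known. Named were the members, other Abcb genes with Tap1 and Tap2, of which 1 is not reported here, the 5 most abundant other ABC genes, listed mitochondrial partners, neighbours, the 5 genes nearest Abcb1b in level, and unannotated forms seen in both libraries or with at least 3 reads in 1; the regulators, the Abcb8 donor, the rarer donors of Abcb1b and the Genomic model were named after their values were seen. PCR reads without molecular identifiers are not independent molecules.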

Additional observations from a re-analysis of the deposited data

How the results depend on the processing

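No paired analysis was possible because the study has 1 group. The level of Abcb1b, 1781 CPM, was 1741 CPM with spike-ins in the total, 1705 CPM with full-length reads only and 1855 CPM without the Genomic class, while TMM and DESeq2 scaling moved it by less than the spread between libraries; single libraries gave 1770 to 1792 CPM. The log2 ratio of Abcb1b, 0.018, changed sign to -0.049 under TMM scaling, -0.016 under DESeq2 size factors, -0.033 with full-length reads only and -0.0094 without the Genomic class, and under none of these, nor under either other filter, was Abcb1b called. Its adjusted p was between 0.870 and 1. Genes called between the libraries numbered 257, and 160 with at least 50 reads, where fewer genes were tested. The share of Abcb1b-201, 93.4%, was 73.8% with incomplete matches in the denominator and 99.9% over Known reads only, both by construction, and 93.0 to 93.7% in single libraries. The prefix share was 13.6 to 14.02% in single libraries, and with a minimum of 200 reads, a limit chosen after seeing the data, 0 of the other 285 genes were at or above Abcb1b in both libraries. The exon 5 share of 1.88% was 1.59% over full-length reads, also added after seeing the data, and 1.80 to 1.96% in single libraries. The order of the members did not change under CPM per kilobase or full-length reads. Levels of Abcb1a and Abcb4 rest on 1 or 2 reads, which the filter of 10 reads left out of the test; without a filter the adjusted p was 1 for both.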
